A study of Rattus norvegicus with 12 samples.

Results

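The 10 genes described here encode regulators of G-protein signalling (RGS proteins). They were taken by symbol from the gene tables of a study of primary rat atrial fibroblasts, namely Rgs2, Rgs3, Rgs4, Rgs5, Rgs10, Rgs12, Rgs14, Rgs16, Rgs17 and Rgs19, and make up 10 of 22850 listed features. The rule that selects them uses symbols and no measured value, although the set was chosen with earlier results of these data known. The fibroblasts came from the atria of Sprague-Dawley rats aged 1 to 3 days, were enriched by differential adhesion without sorting and were held in medium with 2% serum. Every group received 1 µmol/L angiotensin II (AngII), the hormone that drives fibrosis in the atrium, for 48 h. The AngII group received nothing else, the AngII+HNG group also received 10 µmol/L HNG, and the AngII+MOTS-c group also received 5 µmol/L MOTS-c, each peptide being added 1 h before AngII. HNG is an analogue of humanin in which a glycine stands at position 14, and humanin and MOTS-c are small peptides encoded in mitochondrial DNA. There were 4 libraries per treatment and 12 in all. No group without AngII was analysed here, so the levels below are those of AngII-treated cells and the comparisons show what each peptide added. HNG and MOTS-c were given at different doses, which bears on every comparison between them.

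RGS proteins switch off signals from G-protein-coupled receptors. An occupied receptor loads the G protein alpha subunit with GTP, and the RGS domain speeds the hydrolysis of that GTP, which ends the signal. The AngII type 1 receptor works mainly through the alpha subunits Gq and G11, which act on phospholipase C-beta, calcium release and protein kinase C. The 10 genes fall into 3 subfamilies. Rgs2, Rgs3, Rgs4, Rgs5 and Rgs16 belong to the R4 subfamily of mostly small proteins that act on Gi and Gq. Rgs10, Rgs12 and Rgs14 belong to the R12 subfamily, which acts mainly on Gi. Rgs17 and Rgs19 belong to the RZ subfamily, which acts on Gi and Gz.

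The libraries held 27960586 to 38322354 counts, so that 3 counts corresponded to 0.0783 to 0.107 CPM. CPM is a read count scaled to a common library size with TMM factors, and it compares libraries for 1 gene. FPKM, which also divides by gene length, was used to compare genes. The fibroblast markers were high, with a median of 4256 FPKM for Col1a1 and 31.9 FPKM for Pdgfra, but cardiomyocyte transcripts were high as well, with 2472 FPKM for Nppa and 728 FPKM for Tnnt2, and a fall in the cells of a type cannot be told apart from less RNA per cell in such bulk samples. The AngII+HNG replicate 3 library stood farther from the other AngII+HNG libraries (mean chi-square per gene of 13.7 to 18.5) than those did from each other (5.14 to 8.56). The study describes the libraries of a group as independent biological replicates, but neither it nor the labels say whether they came from separate cell isolations, so p-values measure only the spread between these samples.

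Rgs4 was 27.2% lower and Rgs10 was 31.4% higher with HNG than with AngII alone, and both passed the test against AngII+MOTS-c too, though for Rgs10 that call depended on single libraries. The promoters of these genes are shown because they are the ones the results turn on and because their base composition differs. They are the 250 bases before the annotated start in the RefSeq annotation of GRCr8. The Rgs4 window lies at chr13:84475885-84476134 and the Rgs10 window at chr1:192418078-192418327, both read on the minus strand. Capitals mark a TATA motif (TATAAA) in Rgs4, 42 to 37 bases before the start, and 2 GC boxes (GGGCGG) in Rgs10, the first of them 93 to 88 bases before the start.
Rgs4: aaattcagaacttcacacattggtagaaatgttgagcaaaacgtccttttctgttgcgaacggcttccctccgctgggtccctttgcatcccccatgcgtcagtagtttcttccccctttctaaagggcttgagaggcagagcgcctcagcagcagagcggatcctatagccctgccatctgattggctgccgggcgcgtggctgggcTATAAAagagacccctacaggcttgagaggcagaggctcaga
Rgs10: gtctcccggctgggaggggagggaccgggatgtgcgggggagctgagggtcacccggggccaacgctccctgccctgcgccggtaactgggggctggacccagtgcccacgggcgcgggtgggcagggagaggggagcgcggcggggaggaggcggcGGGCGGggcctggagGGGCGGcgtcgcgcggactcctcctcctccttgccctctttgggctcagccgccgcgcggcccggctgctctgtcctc
The GC content was 54.4% for Rgs4 and 77.6% for Rgs10. The Rgs10 gene has further annotated starts that the window does not cover. Among the 10 members, all of which were found in the promoter table, TATAAA also occurred in Rgs3 and in no other member, against 12.9% of 33469 rat promoter windows. GGGCGG occurred in 7 of the 10 members and in 30.5% of all windows, the members without it being Rgs4, Rgs14 and Rgs19. Both strands were searched, and these matches describe letters only. The cAMP response element TGACGTCA occurred in none of the 10 windows, against 1.59% of all. The AP-1 motif TGANTCA occurred in those of Rgs12 and Rgs17, against 6.34% of all. The E-box CACGTG occurred in that of Rgs19, against 5.59% of all.

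All 10 genes were detected in every library, and their levels spanned a wide range. On the FPKM scale Rgs10 had the highest mean over the 12 libraries (21.9, range 18.4 to 28.0). It was followed by Rgs3 (20.7, range 19.3 to 22.2), Rgs4 (18.7, range 13.8 to 22.5), Rgs19 (17.7, range 16.1 to 21.5) and Rgs2 (16.0, range 12.5 to 17.6). The ranges of these 5 genes overlapped with those of their neighbours, and Rgs10 was above Rgs3 in 6 of 12 libraries only, so their order is not fixed by these data. Lower levels were found for Rgs5 (8.72, range 6.18 to 11.7), which is best known from pericytes, then for Rgs12 (4.18), Rgs16 (2.32), Rgs17 (1.42) and Rgs14 (0.408). From Rgs2 downward each gene was above the next one in 12 of 12 libraries. The order of counts was different, because the length that the tables imply for a gene ran from 572 bases for Rgs5 to 8180 bases for Rgs17. This implied length differed between libraries by up to 1.11-fold, for Rgs19, so the main tests used counts, and FPKM was tested only as an alternative.

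**Figure D1:**
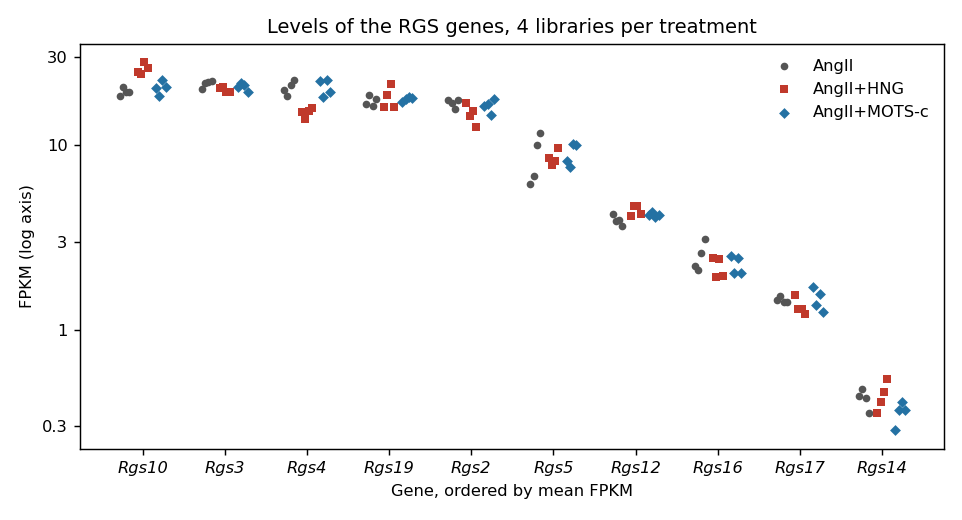
FPKM of the 10 RGS genes on a log axis, with 1 point per library (4 per treatment) and the genes ordered by their mean over 12 libraries. The first 5 genes lie between 12.5 and 28.0 FPKM, and Rgs14 lies at the bottom between 0.286 and 0.542 FPKM.

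In the comparison of AngII+HNG with AngII, 2 of the 10 RGS genes passed an adjusted p of 0.05 in edgeR's quasi-likelihood test, against 5.98% of the 14524 genes tested. The p-values were adjusted over all genes tested. Rgs4 was the member that fell, as did 2.58% of all genes tested, and Rgs10 the member that rose, as did 3.4%. Rgs3 and Rgs2 passed an unadjusted p of 0.05 as well, which 20.3% of all genes did, but not after adjustment. The median log2 fold change of the 10 members was -0.097 and that of all genes was 0.0043. Among the 10 genes, all 5 of the R4 subfamily had negative log2 fold changes (-0.46 to -0.050), as did 7079 of the 14524 genes tested. All 3 of the R12 subfamily had positive ones (0.027 to 0.39), as did 7445 of all genes tested. Only 1 member of each of these subfamilies passed the test. Rgs1, Rgs8 and Rgs18, R4 genes outside the 10, had higher means with HNG, and Rgs1 passed the test (edgeR adjusted p = 0.0174).

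Rgs4 encodes a small R4 protein that acts on Gi and Gq and is known from brain and heart. Its CPM values in AngII replicates 1 to 4 were 58.6, 54.2, 63.3 and 66.0. With HNG they were 44.2, 40.5, 45.6 and 45.7, and with MOTS-c they were 65.8, 55.1, 66.1 and 57.9. All 4 AngII+HNG libraries lay below all 8 others, and in the comparison with AngII the groups did not overlap for 13.6% of all genes tested. The mean was 44.0 ± 2.41 CPM with HNG and 60.5 ± 5.20 CPM with AngII alone (SD, n = 4 each). The log2 fold change was -0.46 (SE 0.065, 95% confidence interval -0.60 to -0.32, edgeR adjusted p = 0.00148). Without the AngII+HNG replicate 3 library it was -0.48 (edgeR adjusted p = 0.00138). The call held in 20 of 20 alternative analyses, with log2 fold changes from -0.51 to -0.42 and adjusted p-values up to 0.0198.

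The summed level of 11 pericyte and smooth muscle markers moved in the same direction as Rgs4. It was 2805 to 3012 CPM with AngII, 2445 to 2711 CPM with AngII+HNG and 2689 to 2968 CPM with AngII+MOTS-c. In the comparison of AngII+HNG with AngII, 4 of the 10 markers tested fell (Mcam, Notch3, Myh11 and Cnn1) and none rose, against 2.58% of all genes tested that fell. Pdgfrb made up the largest share of the sum, with means of 1283 CPM with AngII and 1241 CPM with AngII+HNG, and did not pass. Of the markers tested, 9 had negative log2 fold changes. Des, which did not pass, had a higher mean with HNG (267.2 and 271.0 CPM). The pericyte marker Higd1b, which was not tested, had only 3 to 14 counts in a library. The part of these markers in the result for Rgs4 was not tested. Rgs5, the RGS gene that marks pericytes, lies next to Rgs4 in the rat genome. It had 5.01 ± 1.51 CPM with AngII (range 3.57 to 6.75) and 4.83 ± 0.452 CPM with AngII+HNG (SD, n = 4 each), a log2 fold change of -0.050 (SE 0.18, 95% confidence interval -0.44 to 0.34, edgeR adjusted p = 0.921). That interval does not reach the estimate for Rgs4 but overlaps with the interval of Rgs4, and the difference between these genes was not tested.

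Rgs10 encodes one of the smallest RGS proteins, acts on Gi and is known for high levels in microglia and macrophages. Its CPM values in AngII replicates 1 to 4 were 17.1, 18.7, 17.5 and 18.2. With HNG they were 22.8, 21.8, 25.5 and 23.7, and with MOTS-c they were 18.7, 17.1, 20.7 and 19.0. All 4 AngII+HNG libraries lay above all 8 others, although the lowest of them (21.8) was close to the highest MOTS-c library (20.7). In the comparison with AngII the groups did not overlap for 13.6% of all genes tested. The mean was 23.5 ± 1.60 CPM with HNG and 17.9 ± 0.709 CPM with AngII alone (SD, n = 4 each). The log2 fold change was 0.39 (SE 0.063, 95% confidence interval 0.26 to 0.53, edgeR adjusted p = 0.00327). It was 0.35 without the AngII+HNG replicate 3 library (edgeR adjusted p = 0.00442), and the call held in 20 of 20 alternative analyses, with adjusted p-values up to 0.0211.

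**Figure D2:**
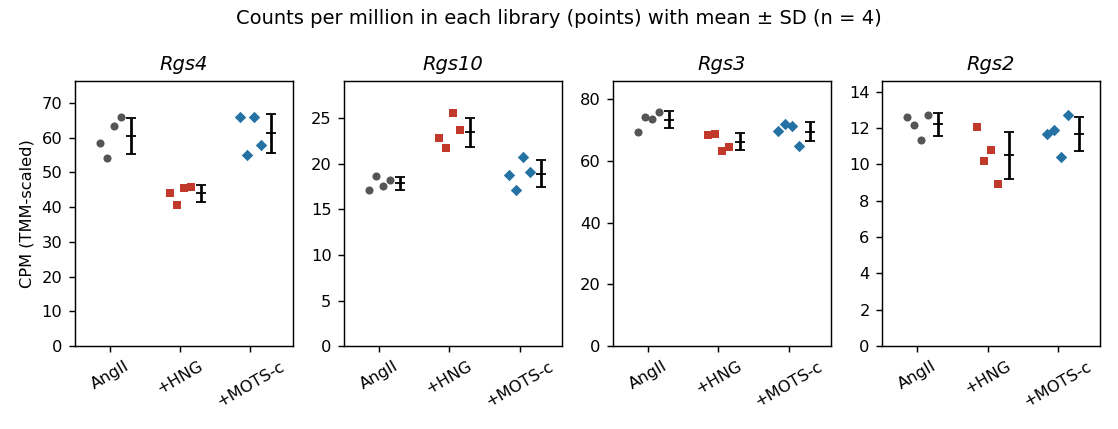
TMM-scaled CPM of Rgs4, Rgs10, Rgs3 and Rgs2 in each of the 12 libraries (points), with the mean ± SD of the 4 libraries per treatment (bars); axes start at 0. The AngII+HNG points of Rgs4 (40.5 to 45.7) lie below and those of Rgs10 (21.8 to 25.5) above all points of the other treatments.

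The summed level of macrophage markers was higher with HNG, as Rgs10 was, but the markers did not all go the same way. The sum of 11 macrophage markers was 237.4 to 283.5 CPM with AngII, 322.6 to 426.9 CPM with AngII+HNG and 233.8 to 281.8 CPM with AngII+MOTS-c. Of the 10 tested, 4 rose with HNG (Ptprc, Cd68, Mrc1 and Lyz2) and none fell, against 3.4% of all genes tested that rose. Lyz2 made up the largest share of the sum, with a mean of 102.3 CPM with AngII and 171.6 CPM with AngII+HNG. Of the markers that did not pass, 3 had negative log2 fold changes, which were -0.36 for Adgre1 (edgeR adjusted p = 0.185), -0.43 for C1qc (edgeR adjusted p = 0.255) and -0.046 for C1qb (edgeR adjusted p = 0.916). The marker left out of the test, Cd163, had 0 to 18 counts and was at 0 in 3 libraries. Their part in the result for Rgs10 was not tested. Endothelial markers were higher too, at 96.5 to 106.2 CPM with AngII+HNG against 75.0 to 84.2 CPM with AngII, and 4 of 8 rose (50%, against 3.4% of all genes). The summed fibroblast markers overlapped between AngII+HNG (63013 to 71056 CPM) and AngII (64912 to 69243 CPM), and 2 of 10 rose (20%). The summed cardiomyocyte markers overlapped as well (5636 to 6632 against 5362 to 6084 CPM), and 1 of 9 rose (11.1%). Of the Schwann cell markers, 0 of 4 tested passed in edgeR or at an unadjusted p of 0.05.

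Rgs1 and Rgs18, RGS genes outside the 10 that are known from blood cells, were examined beside these markers. Rgs1, an inhibitor of chemokine receptor signals in lymphocytes, had 1.50, 1.51, 1.43 and 1.23 CPM with AngII, and 2.06, 2.04, 2.72 and 2.73 CPM with AngII+HNG. The groups did not overlap, as was so for 13.6% of all genes tested. The log2 fold change of Rgs1 was 0.76 (SE 0.17, edgeR adjusted p = 0.0174). The call was lost without AngII replicate 1 (edgeR adjusted p = 0.0513), without AngII+HNG replicate 4 (edgeR adjusted p = 0.0585) and without both libraries numbered 4 (edgeR adjusted p = 0.108). Rgs18, known from platelets and their precursors, had a mean of 2.79 CPM with AngII (range 2.17 to 3.49) and 3.89 CPM with AngII+HNG (range 3.09 to 5.03), and its log2 fold change of 0.48 (SE 0.18) did not pass the test (edgeR adjusted p = 0.151). Of the 11 RGS genes outside the 10 members, 7 could be tested and Rgs1 was the one that passed (14.3%, against 5.98% of all genes). Rgs13 and Rgs21 were at 0 in every library, and Rgs9 and Rgs20 had at most 8 counts in a library.

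**Figure D3:**
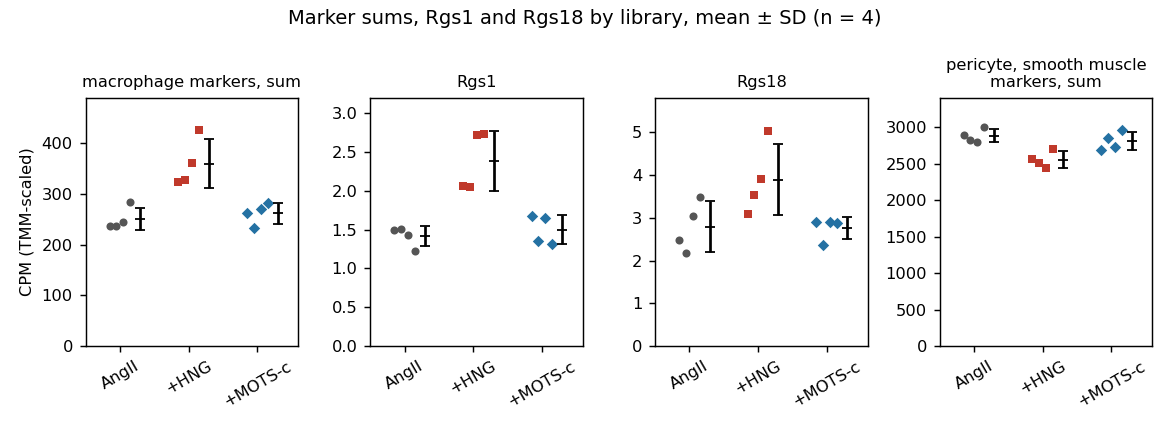
TMM-scaled CPM of the summed macrophage markers, Rgs1, Rgs18 and the summed pericyte and smooth muscle markers in each library (points), with the mean ± SD of 4 libraries (bars); axes start at 0. With AngII+HNG the macrophage sum (322.6 to 426.9 CPM) and Rgs1 lie above, and the pericyte and smooth muscle sum lies below, all AngII libraries, and Rgs18 overlaps between the treatments.

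The other R4 genes among the 10 members did not pass the test with HNG. Rgs3, which acts on Gi and Gq and also exists in long isoforms, had 69.5, 74.2, 73.8 and 76.0 CPM with AngII, and 68.6, 68.6, 63.4 and 64.5 CPM with AngII+HNG. The groups did not overlap, as was so for 13.6% of all genes tested. The log2 fold change of Rgs3 was -0.14 (SE 0.045, 95% confidence interval -0.24 to -0.047, edgeR adjusted p = 0.0868). DESeq2 was the 1 of 20 alternatives that called Rgs3 (adjusted p = 0.0383). Rgs2, a strong inhibitor of Gq whose loss raises blood pressure in mice, had 12.6, 12.2, 11.3 and 12.7 CPM with AngII, and 12.1, 10.2, 10.8 and 8.91 CPM with AngII+HNG. These groups overlapped, and the log2 fold change was -0.22 (SE 0.094, 95% confidence interval -0.42 to -0.015, edgeR adjusted p = 0.213). Rgs16, an inducible gene that had only 43 to 74 counts in a library, had a log2 fold change of -0.21 with a wide interval (-0.60 to 0.19, edgeR adjusted p = 0.598).

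In the R12 subfamily, Rgs12, a large protein with PDZ and Ras-binding domains, had 21.1 ± 1.21 CPM with AngII and 23.1 ± 1.28 CPM with AngII+HNG (SD, n = 4 each). Its log2 fold change was 0.13 (SE 0.062, 95% confidence interval -0.00034 to 0.27, edgeR adjusted p = 0.248). Rgs14, which carries Ras-binding domains and a second site for Gi alpha subunits and is known from hippocampal neurons, had 30 to 58 counts in a library, and a difference smaller than its interval (-0.38 to 0.44 around 0.027 on the log2 scale, edgeR adjusted p = 0.956) was not detectable at this depth. In the RZ subfamily, Rgs19, also known as GAIP, had 29.6 ± 1.09 CPM with AngII and 29.7 ± 3.56 CPM with AngII+HNG (SD, n = 4 each), with an interval of -0.15 to 0.17 on the log2 scale. Rgs17 had 12.0 ± 0.406 and 10.9 ± 1.17 CPM in these groups and a log2 fold change of -0.15 (95% confidence interval -0.33 to 0.040, edgeR adjusted p = 0.379).

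With MOTS-c none of the 10 RGS genes passed the test. In the comparison of AngII+MOTS-c with AngII, 0 of 10 members passed edgeR's adjusted p of 0.05, against 0.0069% of the 14488 genes tested, which was 1 gene. At an unadjusted p of 0.05 the count was also 0 of 10, against 5.05% of all genes, and DESeq2 called 0 of 10. The log2 fold change of Rgs4 was 0.016 (95% confidence interval -0.13 to 0.16, edgeR adjusted p = 0.988), and that of Rgs10 was 0.079 (95% confidence interval -0.067 to 0.22, edgeR adjusted p = 0.939). The intervals of Rgs3 (-0.17 to 0.012) and Rgs19 (-0.099 to 0.095) were the narrowest among the 10 genes. The largest estimate belonged to Rgs14, with 1.31 ± 0.152 CPM with AngII and 1.06 ± 0.131 CPM with AngII+MOTS-c (SD, n = 4 each) and a log2 fold change of -0.30 (95% confidence interval -0.71 to 0.11, edgeR adjusted p = 0.924). In this comparison 2 of the 5 R4 members and 2 of the 3 R12 members among the 10 genes had positive values. The comparisons with HNG and with MOTS-c share the AngII libraries.

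**Figure D4:**
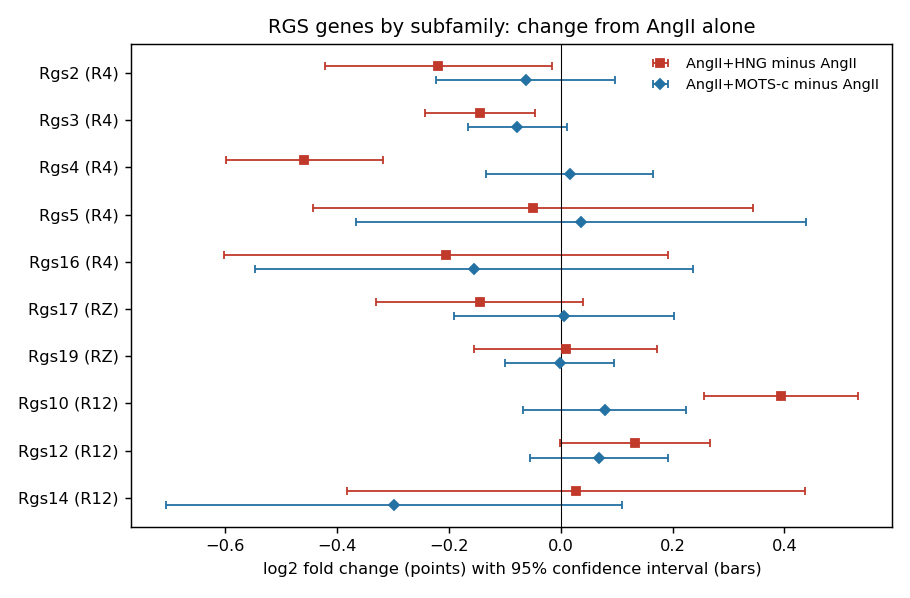
Log2 fold change from AngII alone (points) with its 95% confidence interval (bars) for each RGS gene, with the subfamily in brackets, for AngII+HNG and AngII+MOTS-c. With HNG the intervals of Rgs4, Rgs3 and Rgs2 lie below 0 and that of Rgs10 above 0, and with MOTS-c every interval includes 0.

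The direct comparison of the peptides, at their different doses, gave a difference for the same 2 genes. Rgs4 and Rgs10 passed between AngII+HNG and AngII+MOTS-c, 2 of 10 members against 4.41% of the 14448 genes tested (2.64% higher and 1.77% lower with HNG). The groups did not overlap for either gene, nor for 12.5% of all genes tested. Rgs4 was 28.2% lower with HNG, with 44.0 CPM against 61.2 CPM (means, n = 4 each), a log2 fold change of -0.48 (SE 0.067, 95% confidence interval -0.62 to -0.33, edgeR adjusted p = 0.00191), and it passed in 20 of 20 alternatives. Rgs10 was 24.2% higher with HNG, with 23.5 ± 1.60 CPM against 18.9 ± 1.49 CPM (SD, n = 4 each) and a log2 fold change of 0.31 (SE 0.073, 95% confidence interval 0.15 to 0.47, edgeR adjusted p = 0.0297). Rgs10 lost its call in 8 of 20 alternatives. Among them were the fits without AngII+HNG replicate 3 (edgeR adjusted p = 0.0579), AngII+HNG replicate 4 (0.0707), AngII+MOTS-c replicate 1 (0.0891), AngII+MOTS-c replicate 2 (0.106) and AngII+MOTS-c replicate 4 (0.0558), and its log2 fold change lay between 0.26 and 0.32 in these fits. The other 8 members did not pass, and Rgs14 had the widest interval of those given (0.32, 95% confidence interval -0.12 to 0.76, edgeR adjusted p = 0.407).

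Over the 12 libraries Rgs4 and Rgs10 ran in opposite directions, with a Pearson correlation of their log2 CPM of -0.71, which includes the difference between the treatments and is given as a description. Among 13450 genes, genes whose log2 CPM was most like Rgs4 included Foxc2 (r = 0.96), a forkhead transcription factor of mesenchyme and vessels, and Fam107b (r = 0.96). Foxc2 had a mean of 33.6 CPM with AngII, 25.9 CPM with AngII+HNG and 33.1 CPM with AngII+MOTS-c. Those most like Rgs10 were Slc27a1 (r = 0.97), a fatty acid transporter, Apoe (r = 0.96), the apolipoprotein of lipid export, and Cpz (r = 0.95), a secreted carboxypeptidase. Apoe had a mean of 120.4 CPM with AngII, 251.4 CPM with AngII+HNG and 134.9 CPM with AngII+MOTS-c. These correlations too include the difference between the treatments, and each gene named as like Rgs4 or Rgs10 passed the test with HNG against AngII (edgeR adjusted p = 0.000126 to 0.00868). The points share the 12 libraries and their depth.

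Of 33 receptors listed, mostly coupled to Gq, 27 were tested with HNG, and 2 rose, 3 fell and the other 22 did not pass. This was 18.5% of those tested, against 5.98% of all genes, and 7 of 27 passed an unadjusted p of 0.05, against 20.3% of all genes. Agtr1a, the AngII type 1a receptor, had 39.5 CPM with AngII, 45.0 CPM with AngII+HNG and 43.8 CPM with AngII+MOTS-c, and neither difference passed the test (log2 fold change 0.19, 95% confidence interval -0.028 to 0.41, edgeR adjusted p = 0.321 with HNG, and 0.15, adjusted p = 0.924 with MOTS-c). Agtr1b had 0 to 3 counts and was not tested. S1pr3, a sphingosine-1-phosphate receptor, fell from 83.8 ± 5.23 to 64.7 ± 2.57 CPM with HNG (SD, n = 4 each), a log2 fold change of -0.37 (SE 0.051, edgeR adjusted p = 0.00121) that held in 20 of 20 alternatives, and it was also lower with HNG than with MOTS-c (-0.30, adjusted p = 0.00290). F2r, the thrombin receptor, fell from 310.3 ± 5.41 to 269.3 ± 13.0 CPM (log2 fold change -0.20, edgeR adjusted p = 0.0104), and lost the call without both libraries numbered 4 (edgeR adjusted p = 0.0612). Ptgfr, the prostaglandin F receptor, fell from a range of 90.6 to 108.1 CPM to a range of 66.2 to 82.9 CPM (log2 fold change -0.38, edgeR adjusted p = 0.00713), and lost the call with limma on FPKM without a filter (limma adjusted p = 0.0583).

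P2ry6, a receptor for UDP, rose from 7.15 ± 1.02 to 10.2 ± 0.533 CPM with HNG (SD, n = 4 each), with a log2 fold change of 0.52 (SE 0.11, edgeR adjusted p = 0.0124) that held in 20 of 20 alternatives. Avpr1a, a vasopressin receptor with only 25 to 75 counts in a library of these groups, rose from 0.947 to 1.64 CPM (log2 fold change 0.80, edgeR adjusted p = 0.0423), and this call was lost in 12 of 20 alternatives (adjusted p up to 0.182), among them the fits without any 1 of AngII replicates 1 to 4 or AngII+HNG replicates 2 to 4 (edgeR adjusted p = 0.0551 to 0.135). Ednrb, the endothelin type B receptor, did not pass with either peptide against AngII but was higher with HNG than with MOTS-c, at 11.0 ± 2.12 against 7.23 ± 0.525 CPM (SD, n = 4 each, log2 fold change 0.60, edgeR adjusted p = 0.0170). That call was lost in 4 of 20 alternatives, among them the fits without AngII+MOTS-c replicate 1 (edgeR adjusted p = 0.0565), without its replicate 3 (edgeR adjusted p = 0.0580) and without both libraries numbered 4 (edgeR adjusted p = 0.0640).

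Among the G proteins that RGS proteins act on, 1 of 26 tested subunits passed with HNG (3.85%, against 5.98% of all genes), and 4 of 26 passed an unadjusted p of 0.05. Gnao1, a Gi-class alpha subunit abundant in neurons, rose from 20.4 ± 1.99 to 26.6 ± 1.47 CPM (SD, n = 4 each, log2 fold change 0.38, edgeR adjusted p = 0.00742), in 20 of 20 alternatives. The alpha subunits that serve the AngII receptor did not pass, Gnaq having 102.3 CPM with AngII and 93.7 CPM with AngII+HNG (log2 fold change -0.12, edgeR adjusted p = 0.176) and Gna11 having 34.0 and 30.1 CPM (log2 fold change -0.18, edgeR adjusted p = 0.304). Of 26 effectors of Gq and of the calcineurin-NFAT pathway, 2 rose and none fell (7.69%, a share near that of all genes), while 11 of the 26 passed an unadjusted p of 0.05, against 20.3% of all genes. Itpr3, a calcium release channel, rose from 19.8 ± 0.787 to 25.0 ± 1.33 CPM (SD, n = 4 each, log2 fold change 0.34, edgeR adjusted p = 0.00473), in 20 of 20 alternatives. Plcb2, the phospholipase C-beta best known from blood cells, rose from 4.97 to 6.73 CPM (log2 fold change 0.44, edgeR adjusted p = 0.0279), and lost the call in 7 of 20 alternatives, among them the fits without both libraries numbered 4 (edgeR adjusted p = 0.129) and without any 1 of AngII replicates 1 to 4 or AngII+HNG replicate 4 (edgeR adjusted p = 0.0542 to 0.0867). Plcb1, Plcb3 and Plcb4, the other phospholipases C-beta, did not pass, with log2 fold changes of 0.12, -0.035 and -0.14 (edgeR adjusted p = 0.590, 0.693 and 0.114). Plcb4 was called in 2 of 20 alternatives, among them the fit without AngII+HNG replicate 1 (edgeR adjusted p = 0.0235).

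The receptor kinases and arrestins, which silence receptors, gave 0 calls of 7 tested in edgeR with HNG, 1 of them passing an unadjusted p of 0.05, against 5.98% and 20.3% of all genes. Of 15 further genes with an RGS domain or a partner of RGS proteins, 1 fell (6.67%, a share near that of all genes). It was Rgs7bp, which anchors R7 RGS proteins at the membrane, with 32.1 ± 2.14 CPM with AngII and 26.6 ± 2.01 CPM with AngII+HNG (SD, n = 4 each, log2 fold change -0.27, edgeR adjusted p = 0.0288). Its call was lost in 9 of 20 alternatives (adjusted p up to 0.159), among them the fits without AngII replicates 1, 2 or 3 or without AngII+HNG replicates 2 or 4, each left out singly (edgeR adjusted p = 0.0631 to 0.0934). In the comparison of AngII+MOTS-c with AngII no gene of these 6 lists passed in edgeR, and at an unadjusted p of 0.05 the counts were 1 of 28 receptors, 4 of 26 G protein subunits, 1 of 26 effectors and 0 in the other 3 lists, against 5.05% of all genes.

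**Figure D5:**
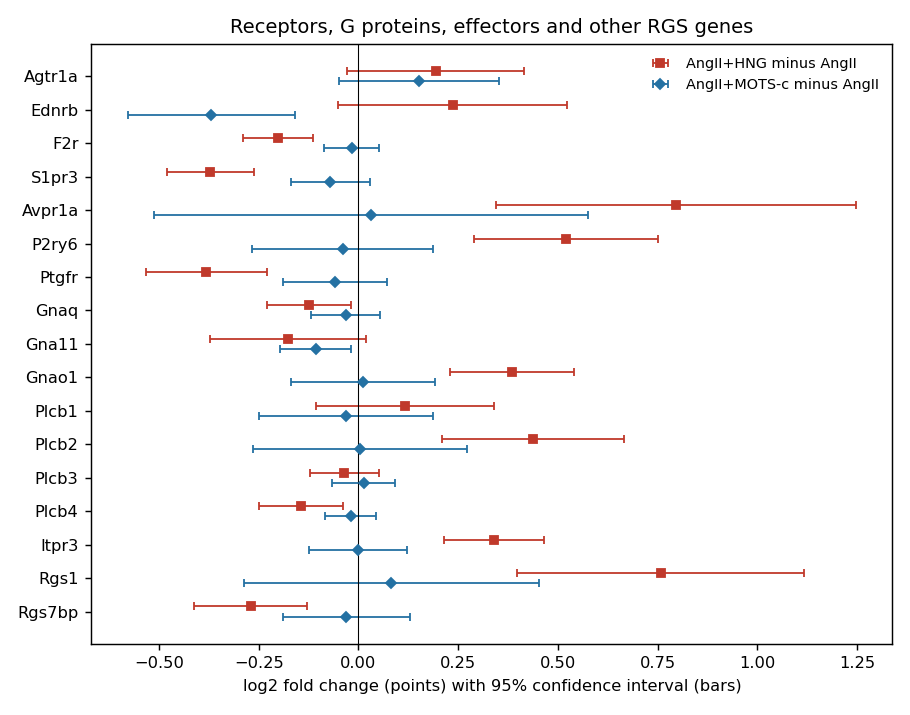
Log2 fold change from AngII alone (points) with its 95% confidence interval (bars) for receptors, G protein subunits, effectors and RGS-related genes outside the 10 members, for AngII+HNG and AngII+MOTS-c. With HNG the intervals of F2r, S1pr3, Ptgfr, Gnaq, Plcb4 and Rgs7bp lie below 0. Those of P2ry6, Avpr1a, Gnao1, Plcb2, Itpr3 and Rgs1 lie above 0, and the interval of Agtr1a includes 0 for both peptides.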

How the data were processed

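Tables of 12 libraries of rat atrial fibroblasts were used, with 4 libraries in each of 3 treatments, grouped by the sample titles. The authors prepared mRNA libraries, sequenced them as paired ends on a DNBSEQ platform and deposited unnormalized read counts, which are whole numbers. FPKM values, corrected for gene length and library total, were deposited for the same genes. HISAT2, Picard 1.41 and SAMtools 0.1.18 are named in the submitters' processing notes, whereas the tool for counting, the strand setting and the build are not given in the sources used here. Without strand, reads of overlapping genes cannot be told apart. The tables list 22850 features, of which 4465 had 0 counts in all libraries. Depth was 27960586 to 38322354 counts per library, and limits at low counts cover counting error only.

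Tests were run with edgeR 4.0.16 under R 4.3.3. For every comparison the 8 libraries of its groups alone were filtered with filterByExpr, normalized by TMM and fitted by glmQLFit and glmQLFTest, with Benjamini-Hochberg adjustment over all genes tested and a threshold of 0.05. Standard errors were derived from the F statistic. Log2 CPM for correlations used a prior count of 2. Alternatives were DESeq2 1.42.0, its size factors, other filters, all 12 libraries in 1 fit, blocks by replicate number and by the number in the library names, limma 3.58.1 on log2(FPKM + 1) and log2(FPKM + 0.1), and left-out libraries. The script was tested on simulated data. Promoters came from RefSeq (GRCr8) by symbol, and none of its coordinates was applied to the deposited tables.

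The RGS genes and the pathway and marker lists were chosen with earlier results of these data known. All members are reported, and of each pathway list the genes with an adjusted p below 0.05 in any comparison, up to 6 by smallest adjusted p, with Agtr1a, Agtr1b, Gnaq, Gna11, Plcb1, Plcb3 and Plcb4 always given. For members past the threshold the 3 genes with the highest correlation are named, passing over LOC names, except that 1 gene chosen by this rule is not reported here. Rgs18 and single marker genes were picked for mention, and Foxc2 and Apoe for their levels, with the values in view.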

Additional observations from a re-analysis of the deposited data

How the results depend on the processing

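Over the 30 results of the 10 RGS genes in 3 comparisons and 20 alternatives each, 591 of 600 values stayed on the same side of the threshold, 8 lost the call (all of them Rgs10 between AngII+HNG and AngII+MOTS-c), 1 gained it (Rgs3 with DESeq2) and none turned a call around, while 42 values changed sign with no call in either fit. Counts of calls over all genes moved more. Between AngII+HNG and AngII, 869 calls became 475 with limma on FPKM without a filter, 577 with replicates 2 and 3 summed, which share a number in their library names, 541 without both libraries numbered 4, and 431 to 932 when 1 library was left out, the lowest counts being those without AngII replicate 1 (431), 2 (485) or 3 (512). Between AngII+MOTS-c and AngII, 1 call became 4 with DESeq2, 0 in the fit of all 12 libraries, with replicates 2 and 3 summed and without both libraries numbered 4, and 0 to 3 when 1 library was left out, with 3 calls without AngII+MOTS-c replicate 1 and none without any other of its replicates or any AngII replicate. Between AngII+HNG and AngII+MOTS-c, 637 calls became 1034 with DESeq2, 975 in the fit of all 12 libraries, 304 with limma on FPKM without a filter, 377 without both libraries numbered 4, and 322 to 625 when 1 library was left out, with 416 without AngII+HNG replicate 2 and 324, 322 and 389 without AngII+MOTS-c replicates 1, 2 and 3. In that comparison the count of RGS genes called, 2, became 1 with a block by library name, with limma on FPKM without a filter and without both libraries numbered 4, and 1 to 2 when 1 library was left out, with 1 without AngII+HNG replicates 3 or 4 or AngII+MOTS-c replicates 1, 2 or 4. The cause was not tested.

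Same-numbered libraries of different groups did not deviate together in every pair, with correlations from -0.0755 to 0.136 between AngII+HNG and AngII, 2.9e-05 to 0.119 between AngII+MOTS-c and AngII, and -0.0140 to 0.212 between AngII+HNG and AngII+MOTS-c, so the numbers were not taken to pair the samples. Replicate 4 correlated best with its own number in all 3 comparisons, but not every replicate did. With the replicate number as a block, 1111, 2 and 1054 genes were called in AngII+HNG against AngII, AngII+MOTS-c against AngII and AngII+HNG against AngII+MOTS-c, and 2, 0 and 2 RGS genes. In the block by library name, replicate 1 stood alone in its block in the comparisons with MOTS-c. Rgs14 and Rgs16 had only 30 to 74 counts in a library, and the part of depth in their wide intervals was not tested.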
